A study of Mus musculus with 12 samples.

Results

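The 6 newborn hearts compared here were 3 wild-type (WT) hearts and 3 hearts from libraries labelled DYRK1B-Tg, all taken 3 days after birth (P3) from mice of the C57BL/6 strain. They are 6 of the 12 RNA-seq libraries of the study, and were taken by their titles. The transgene is a full-length mouse cDNA of DYRK1B behind the promoter of α-myosin heavy chain, a muscle gene of the heart, which directs it to cardiac muscle cells, and the WT mice were littermates. The other 6 libraries, 3 WT and 3 DYRK1B-Tg hearts at 8 weeks (P56), served as the adult reference. Sex, the number of founder lines and whether hearts were pooled are not given in the sources used here, and each library was taken as 1 heart. P-values thus measure only the spread between these samples, which may be in part technical.

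DYRK1B is a protein kinase of the dual-specificity tyrosine-regulated family, which activates itself by phosphorylating its own activation loop and then phosphorylates serine and threonine in other proteins. Known targets of the DYRK1 kinases, to which it belongs, include cyclin D, p27 (Cdkn1b) and LIN52, through which these kinases hold cells out of division. The heart of a mouse a few days old still holds dividing muscle cells, is changing from a foetal to an adult set of contractile proteins, and is moving from glucose to fatty acids as its main fuel.

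Levels are in CPM, counts of a gene per fixed number of library counts after scaling by the trimmed mean of M-values (TMM). Differences are log2 fold changes of the libraries labelled DYRK1B-Tg over WT from 1 edgeR quasi-likelihood fit of all 12 libraries. Dyrk1b itself stood at 78.1, 76.2 and 71.6 CPM in the WT hearts (replicates 1, 2 and 3, the order used throughout). In the libraries labelled DYRK1B-Tg it stood at 93.1, 77.6 and 83.4 CPM. The groups overlapped, and the difference was 0.17 on the log2 scale (SE 0.14, 95% interval -0.13 to 0.47, edgeR adjusted p = 0.927). The interval allows a level up to 1.38-fold higher or 1.09-fold lower than WT. Adult WT hearts had 90.6 to 105 CPM of Dyrk1b, and adult DYRK1B-Tg hearts 596 to 929 CPM. The transcript level of the targeted gene therefore does not bear out the label at P3, and each direction given here is one between labels. Myh6 (α-myosin heavy chain), whose promoter drives the transgene, was already abundant, with 11180, 16960 and 17100 CPM in WT and 18100, 15020 and 15520 CPM in the libraries labelled DYRK1B-Tg.

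**Figure D1:**
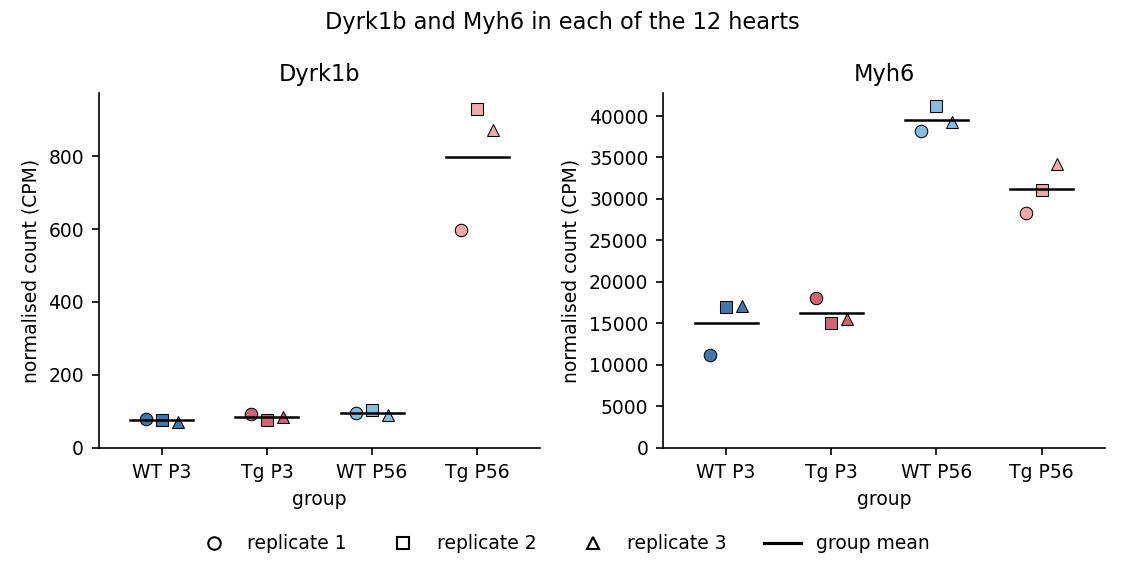
Normalised counts (CPM) of Dyrk1b and Myh6 in each heart, by group, with markers for the replicate number and a line at the group mean. The 6 newborn hearts lie between 71.6 and 93.1 CPM of Dyrk1b, and the adult DYRK1B-Tg hearts at 596 CPM and above.

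No gene passed an adjusted p of 0.05 at P3: edgeR called 0 of 14212 genes tested (0%), where the same fit called 3648 (25.7%, with 14.1% higher and 11.5% lower) at P56. Without adjustment, 681 genes (4.79%) were under a p of 0.05, of which 393 (2.77%) were higher and 288 (2.03%) lower. The 2 groups of hearts did not overlap for 1623 genes (11.4%), 887 higher (6.24%) and 736 lower (5.18%). DESeq2 called 1 of 18351 genes (0.00545%), Gm14296, and had 622 at an unadjusted p under 0.05. Library totals were 15742463 to 16756492 counts in WT, and the libraries labelled DYRK1B-Tg had 16854143 to 17095338. WT replicate 1 stood apart from the other newborn hearts: its counts differed from those of WT replicates 2 and 3 by a chi-square of 28.06 and 26.52 per degree of freedom, where the latter pair gave 9.36. WT replicate 2 and DYRK1B-Tg replicate 3 differed from the rest in Y-linked transcripts. Shares of all genes at an unadjusted p under 0.05 and higher were 1.21%, 4.1% and 3.76% when WT replicates 1, 2 and 3 were left out in turn. They were 1.32%, 1.77% and 2.92% without DYRK1B-Tg replicates 1, 2 and 3, and counts of list members below are to be read against them.

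The gene with the lowest p was Gm14296, a predicted zinc finger gene of a cluster of closely alike copies. It stood at 10.3, 10.1 and 6.97 CPM in WT and at 2.56, 3.53 and 3.16 CPM in the libraries labelled DYRK1B-Tg. The difference in edgeR was -1.56 on the log2 scale (SE 0.22, adjusted p = 0.157), and DESeq2 gave an adjusted p of 4.264e-06. Reads of such copies can be divided among them by the counting, so the value of the single gene is uncertain. Another member of that cluster, Gm14325, was next but one in order of p among the lower genes, with a log2 fold change of -0.71 (adjusted p = 0.927). Between them came Adamts8, which encodes a secreted metalloprotease. Its levels were 39.8, 20.4 and 33.0 CPM in WT and 9.15, 15.6 and 14.0 CPM under the transgenic label. On the log2 scale this is -1.26 (95% interval -1.85 to -0.68, adjusted p = 0.927). In the adult it went the other way, 3.41 on the log2 scale, and the difference between ages passed the test at an adjusted p of 0.000133. The other genes of lowest p among those lower were Aox1, Ercc6l2, Dpyd, Sdf2l1 and Ttc39b, between -0.75 and -0.32 on the log2 scale.

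Among genes with higher values, the lowest p belonged to Ndufc2, a subunit of complex I of the respiratory chain. It was at 111.6, 129 and 133 CPM in WT and at 161, 165 and 152 CPM under the transgenic label, or 0.35 on the log2 scale (SE 0.08, adjusted p = 0.927). Etfdh, which passes electrons from fatty acid oxidation to the respiratory chain, gave 380, 432 and 384 CPM against 500, 463 and 474 CPM (0.26). Mrpl3 and Aurkaip1, which act in the mitochondrial ribosome, were at 0.24 and 0.26, and Emg1, needed for ribosome assembly, at 0.27. Larger values belonged to Prex2 (0.70), LOC100862446 (1.58) and 2210418O10Rik, which complete the 8 genes of lowest p. 2210418O10Rik, a further zinc finger gene with near-identical copies and so of uncertain value, had 0, 0 and 26 counts in WT against 97, 122 and 124. In each of these 8 genes the 3 libraries labelled DYRK1B-Tg lay above the 3 WT libraries, as they did in 887 of all genes (6.24%). A choice by lowest p favours such genes, and in none of the 8 did the adjusted p fall under 0.05.

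What the data still allow was read from the 95% interval of each gene's log2 fold change. For 12570 of 14212 genes (88.4%) the whole interval lay within a 2-fold change in either direction, and for 10270 (72.3%) within 1.5-fold. The median half-width was 0.26 on the log2 scale, a factor of 1.2. Precision followed the level: of 3814 genes at 50 CPM or more, 98.8% were held within 2-fold and 95.6% within 1.5-fold. Of 1064 genes under 1 CPM, 18.2% were held within 2-fold and 0 within 1.5-fold. A 2-fold change of a gene at such a level would mostly not be detectable at this depth. These intervals hold gene by gene and are not adjusted for the number of genes.

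**Figure D2:**
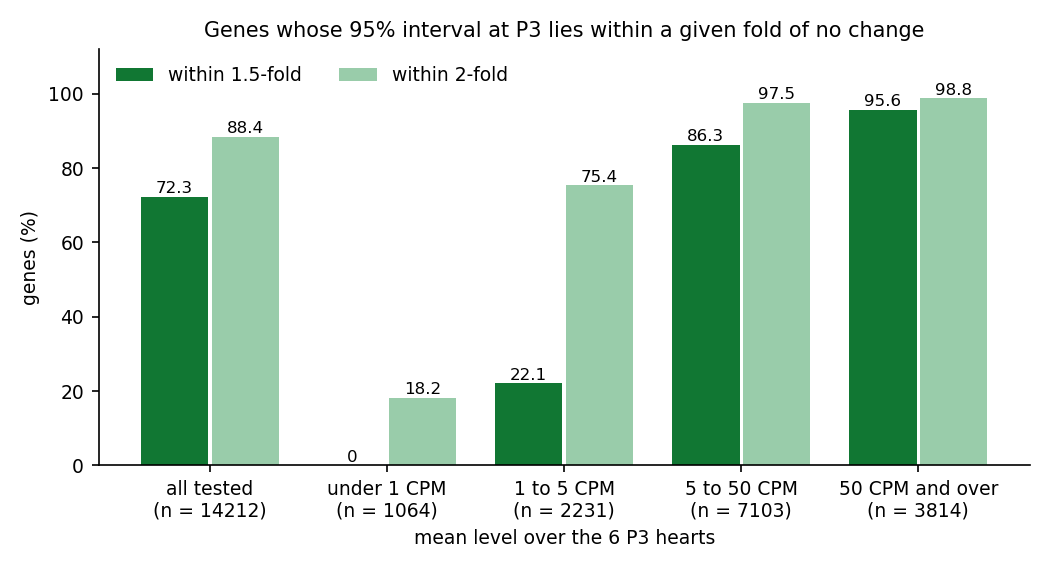
Share of genes (%) whose 95% interval of the P3 genotype difference lies within 1.5-fold (dark bars) or 2-fold (light bars) of no change, for all genes tested and by mean level over the 6 newborn hearts. The share within 1.5-fold goes from 0% under 1 CPM to 95.6% at 50 CPM and over.

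The genes that differ in adult DYRK1B-Tg hearts give a scale for these limits. Of the 3648 genes called at P56, the P3 interval left out the adult fold change for 3462 (94.9%). This share was 95.6% without WT replicate 1 and 85.3% with only the 4 newborn hearts that had Y-linked transcripts. The difference between the effects at the 2 ages, tested directly, passed the threshold for 2029 of them (55.6%). Over all genes it did so for 2109 (14.8%, with 8.42% higher and 6.42% lower). The 3648 genes were chosen by the adult change, which enters this difference, so a share above that of all genes follows from the choice. The adult value set against the P3 interval was also taken without its own error. In 803 genes the adult change was at least 2-fold, and there the P3 interval left out the adult value for 776 (96.6%). Their P3 interval lay within 2-fold for 552 (68.7%). An unadjusted p under 0.05 at P3 was found for 226 of the 3648 (6.2%), near the 4.79% of all genes.

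Among the 15 genes read against the adult change, natriuretic peptides and contractile isoforms of the stressed heart had the widest intervals. Nppa (atrial natriuretic peptide) was at 2682, 1353 and 3792 CPM in WT and at 894, 1477 and 2287 CPM in the libraries labelled DYRK1B-Tg. Its log2 fold change was -0.75 (95% interval -1.57 to 0.07), which allows at most a 1.05-fold higher level, and the adult value of 2.17 lay outside. Nppb (B-type natriuretic peptide), at 144 to 474 CPM, had an interval from -1.03 to 0.40, beside 3.16 in the adult. Acta1 (skeletal α-actin, a foetal isoform in the heart) was low in every newborn heart, at 50.2, 143 and 91.2 CPM in WT and 107, 86.2 and 130 CPM in the libraries labelled DYRK1B-Tg. The interval for Acta1 ran from -0.55 to 0.92, and the adult value was 4.15. Myh7 (β-myosin heavy chain) had the widest interval of these, -1.32 to 0.78, and an adult value of 3.87. For all 4 genes the groups of newborn hearts overlapped.

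Genes of the extracellular matrix were held more tightly. Thbs4 (thrombospondin 4, a matrix protein) stood at 45.9, 31.8 and 42.3 CPM in WT and at 25.3, 35.7 and 36.0 CPM in the libraries labelled DYRK1B-Tg, with an interval of -0.76 to 0.15, beside 4.98 in the adult. Postn (periostin, secreted by fibroblasts and valve cells) was at 615 to 929 CPM, with an interval of -0.23 to 0.44 and an adult value of 3.09. Col1a1 (type I collagen) had an interval of -0.28 to 0.49 and an adult value of 1.59. Col3a1 (type III collagen) had one of -0.29 to 0.48, beside an adult value of 0.80, and here the difference between ages did not pass the test (adjusted p = 0.0842). In both collagens WT replicate 1 was the lowest of the 6 hearts, at 612 CPM of Col1a1 and 864 CPM of Col3a1. Of the 33 matrix genes listed, 0 had an unadjusted p under 0.05 in either direction, and their median was 0.02, beside 0.00494 over all genes.

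**Figure D3:**
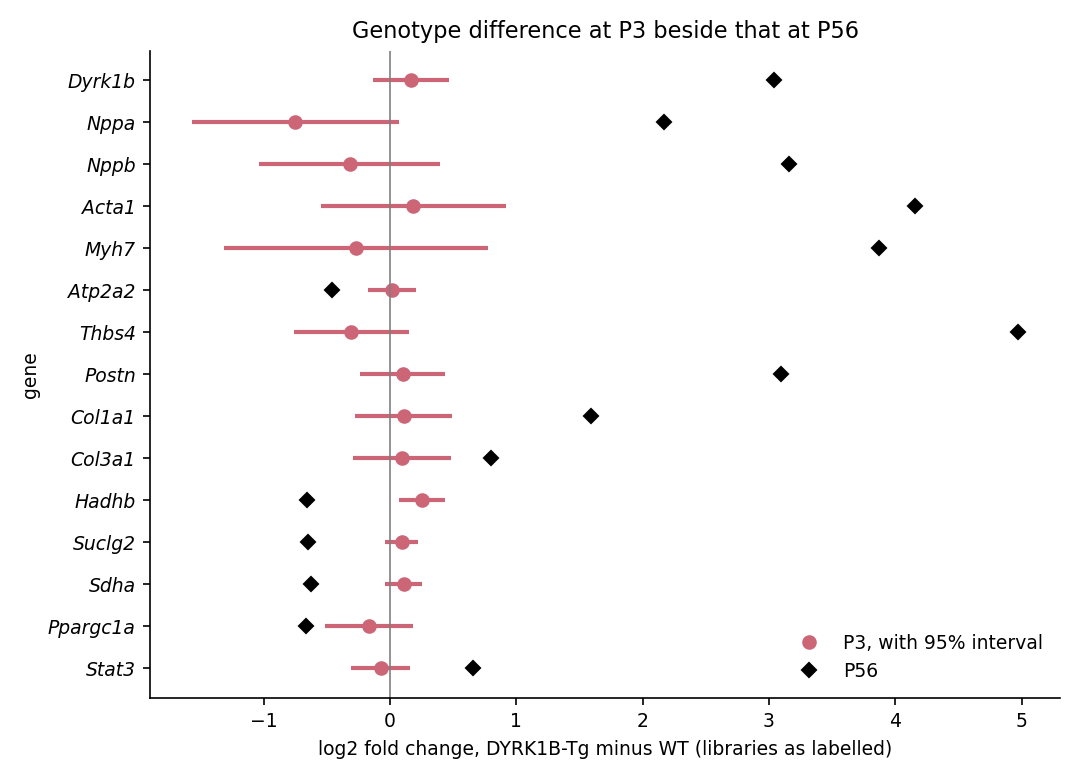
Log2 fold change (x axis) of 15 genes (y axis) between libraries labelled DYRK1B-Tg and WT, at P3 as a circle with its 95% interval and at P56 as a diamond. Each diamond lies outside the P3 interval of its gene.

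Hadhb, Suclg2 and Sdha, enzymes of energy metabolism that are lower in the adult DYRK1B-Tg heart, had P3 fold changes above 0 on the log2 scale. Hadhb, a trifunctional protein subunit that acts in fatty acid oxidation, was at 667, 833 and 765 CPM in WT and at 959, 892 and 844 CPM in the libraries labelled DYRK1B-Tg. Its interval of 0.07 to 0.43 lay above 0, where the adult value was -0.65 (adjusted p at P3 = 0.927, and of the difference between ages 0.000479). Suclg2 (0.09, interval -0.04 to 0.22) and Sdha (0.11, interval -0.04 to 0.26) are enzymes of the citric acid cycle, with adult values of -0.65 and -0.63. Atp2a2, which pumps calcium back into its store after each beat, was held between -0.17 and 0.20, beside -0.46 in the adult. Ppargc1a, a coactivator of mitochondrial genes, had an interval of -0.51 to 0.18, beside -0.67 in the adult, and the difference between ages did not pass the test (adjusted p = 0.167). Stat3, a signalling transcription factor, had one of -0.31 to 0.16, beside 0.66 in the adult.

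A wider set of fuel genes lay on the higher side in the libraries labelled DYRK1B-Tg. Of 30 genes of fatty acid uptake and oxidation, none was called after adjustment over all genes. At an unadjusted p under 0.05, 18 of the 30 were higher and 0 lower, beside 2.77% and 2.03% of all genes. In 14 the groups did not overlap, all with higher values, beside 6.24% of all genes. The median log2 fold change of the list was 0.23. Among them were Hadha (1196, 1497 and 1335 CPM against 1693, 1530 and 1525 CPM), Acadm (393, 466 and 434 CPM against 523, 496 and 495 CPM) and Slc25a20, the carnitine carrier (117, 136 and 134 CPM against 163, 152 and 148 CPM). Acadm and Slc25a20 catalyse or feed β-oxidation in the mitochondrion. By contrast Cpt1b, the muscle form of the enzyme that admits fatty acids to mitochondria, gave overlapping groups and 0.10. Lpl, the lipase of the vessel wall, gave -0.33.

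The summed level of the list was 13420, 14650 and 13090 CPM in WT and 16140, 15750 and 14910 CPM in the libraries labelled DYRK1B-Tg. Cardiomyocyte markers summed to 49320 CPM in WT replicate 1, the lowest, and to 57330 to 63090 CPM in the other 5 hearts, and their part in the result was not tested. In bulk tissue, more cells of a type and more RNA per cell cannot be told apart. Without WT replicate 1 the count at an unadjusted p fell to 11 of 30 higher (1.21% of all genes), with a median of 0.16. It fell to 7 of 30 (1.32% of all genes) when DYRK1B-Tg replicate 1 was left out, and to 11 of 30 (1.77% of all genes) when it was DYRK1B-Tg replicate 2. With only the hearts that had Y-linked transcripts it was 23 of 30 (4.16% of all genes). The same list summed to 28250 to 31560 CPM in adult WT hearts, and adult DYRK1B-Tg hearts had 24410 to 27490 CPM.

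The list of the citric acid cycle and pyruvate dehydrogenase had a smaller median. Of 22 genes 7 were higher (beside 2.77% of all genes) and 0 lower at an unadjusted p under 0.05. The groups did not overlap for 12 (beside 6.24% of all genes), and the median was 0.13. Dlat, a subunit of pyruvate dehydrogenase, was at 269, 287 and 276 CPM in WT and at 329, 319 and 306 CPM in the libraries labelled DYRK1B-Tg. Leaving out WT replicate 1, DYRK1B-Tg replicate 1 or DYRK1B-Tg replicate 2 gave 4 of 22 each (1.21%, 1.32% and 1.77% of all genes), and leaving out DYRK1B-Tg replicate 3 gave 12 (2.92%). Complex I had 6 of 37 genes higher (beside 2.77% of all genes) and 0 lower, with a median of 0.14. This count went to 1 of 37 (2.7%) without WT replicate 1 or DYRK1B-Tg replicate 1, beside 1.21% and 1.32% of all genes, and to 2 without DYRK1B-Tg replicate 2 (1.77%). It went to 10 and 12 without WT replicates 2 and 3, beside 4.1% and 3.76%. In the cholesterol synthesis list 4 of 17 were higher, beside 2.77% of all genes, among them Fdps and Cyp51, with a median of 0.25. The count was 2 without WT replicate 1 (1.21% of all genes), 1 without DYRK1B-Tg replicate 1 (1.32%), where the median was 0.13, and 7 without DYRK1B-Tg replicate 3 (2.92%). Glycolysis also had 4 of 17 higher, beside 2.77%, and 0 lower, with a median of 0.10. Without WT replicate 1 its median was 0.03 and 1 of 17 was higher (1.21% of all genes), as was 1 without DYRK1B-Tg replicate 2 (1.77%). Without DYRK1B-Tg replicate 1 it was 0 of 17, without WT replicate 3 it was 2, and without WT replicate 2 it was 6 (4.1%). With only the hearts that had Y-linked transcripts 7 of 17 were higher, beside 4.16% of all genes.

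Of 19 tested genes among substrates and partners of the DYRK1 kinases, 0 had an unadjusted p under 0.05. In 2 of the 19 the groups did not overlap, both lower, beside 5.18% of all genes, and the median was -0.0093. Ccnd2 (cyclin D2) stood at 193, 270 and 275 CPM in WT and at 283, 239 and 244 CPM in the libraries labelled DYRK1B-Tg, with an interval of -0.23 to 0.33. The adult means of Ccnd2 were 205 CPM (WT) and 74.0 CPM (DYRK1B-Tg). Cdkn1b (p27) had an interval of -0.38 to 0.10 and Foxo1 one of -0.18 to 0.15. Of the 12 genes of the DREAM complex, which silences cell cycle genes in resting cells, 1 was higher at an unadjusted p under 0.05, beside 2.77% of all genes, and the median was 0.10. That count was 0 without DYRK1B-Tg replicate 1 or 2, 2 without WT replicate 2, and 1 in the other settings. Of 8 tested kinases of the DYRK and HIPK families, Dyrk1b included, 0 had an unadjusted p under 0.05.

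The dividing state of the newborn heart was well covered. Mki67, a marker of cycling cells, was at 81.0, 75.5 and 81.9 CPM in WT and at 66.2, 69.8 and 64.7 CPM in the libraries labelled DYRK1B-Tg. These groups did not overlap, with a log2 fold change of -0.25 (adjusted p = 0.927), and in the WT adult Mki67 was at 10.3 CPM. Of 26 genes of mitosis, 2 were lower (Mki67 and Cenpf) and 0 higher at an unadjusted p under 0.05, beside 2.03% and 2.77% of all genes. The median was -0.06, and all 26 intervals lay within 2-fold. Without WT replicate 1 or DYRK1B-Tg replicate 1, 0 were lower and the medians were 0.05 and 0.04. Without DYRK1B-Tg replicate 3, 0 were lower as well. The list summed to 688 to 893 CPM per newborn heart and to 95.5 to 125 CPM in the adult WT heart.

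The newborn heart expressed a broad set of genes. A count was found for 16583 to 16673 genes per heart, and 10917 genes had a mean of at least 5 CPM and 3814 of at least 50 CPM. The 10 genes with most counts held 9.36% to 10.02% of a library. They were Actc1 (cardiac α-actin), Myh6, Myh7, Tnnt2 (cardiac troponin T), Eef1a1 (a translation factor), Myl2 (ventricular myosin light chain), Atp2a2, Gapdh (a glycolytic enzyme), Atp5b (ATP synthase) and Tpm1 (tropomyosin).

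Counts favour long genes, so levels were compared between genes as counts per kilobase of coding length. These were scaled to the same total in each library, without TMM. On that scale Pln (phospholamban, which restrains the calcium pump) came first, with 26670 ± 2592 in WT and 28380 ± 1670 in the libraries labelled DYRK1B-Tg (SD, n = 3 each). Actc1 followed at 17250 ± 946 and 17400 ± 196, then Myl2 at 12790 ± 2194 and 13960 ± 1335. The hearts of Pln, Actc1 and Myl2 did not overlap on this scale, so the order of these 3 genes was the same in each heart. Igf2, a growth factor of foetal tissue, ranked 5th at 7507 ± 587 and 7078 ± 515, and overlapped with Nppa, which ranged from 2354 to 10010 over the hearts. By counts Igf2, with a coding length of 573 bases, was 13th, so its place depends on the scale. Ttn, the giant spring protein of the sarcomere, was 11th by counts and ranked 3622 per coding length. Gm20594, a predicted gene with a coding length of 111 bases, ranked 6th on this scale, a place that rests on its short length. The place of Pln rests on this as well, since its coding length is 156 bases and it was 12th by counts. By counts the order of the 3 was Actc1, Myl2 and Pln, so their order depends on the scale.

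Foetal and adult isoforms were present side by side. Myh7 made up 65.3%, 46.2% and 42.9% of the sum of Myh7 and Myh6, per coding length, in the WT hearts, and 38.5%, 50.6% and 46.7% in the libraries labelled DYRK1B-Tg. In the WT adult this share was 0.364% to 0.447%. WT replicate 1 had the highest share, and the groups overlapped. Reads of these genes can be divided between them, since they are alike in long stretches. Tnni1 (slow skeletal troponin I) gave 47.3% to 51.0% of the sum with Tnni3 (cardiac troponin I) in all 6 hearts, the narrowest range of the pairs relative to its level, and 0.00560% to 0.00977% in the WT adult. Acta1 remained under 1% of its sum with Actc1, at 0.351% to 0.854%, where the WT adult had 1.31% to 2.58%.

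Foetal growth genes were also high. In WT hearts 9793 genes (68.9%) differed between P3 and P56 at an edgeR adjusted p under 0.05, 33.8% higher and 35.1% lower in the adult, and those named here are among the latter. Igf2 was at 3406, 3177 and 3813 CPM in WT and at 3225, 3293 and 3575 CPM in the libraries labelled DYRK1B-Tg, beside 58.0 CPM in the WT adult. Mest, an imprinted gene of growing tissue, stood at 973 to 1930 CPM, with WT replicate 1 highest and DYRK1B-Tg replicate 1 lowest, beside 16.3 CPM in the WT adult. Dlk1, a membrane protein of the Notch ligand type, was at 70.2, 90.9 and 79.8 CPM in WT and at 105, 110 and 114 CPM in the libraries labelled DYRK1B-Tg. Its groups did not overlap and its log2 fold change was 0.45 (adjusted p = 0.927). Of the 13 genes tested on that list, 1 was higher (Dlk1) and 1 lower at an unadjusted p under 0.05, beside 2.77% and 2.03% of all genes, and the median was -0.08.

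The tissue label was borne out by all 10 cardiomyocyte markers, each above 5 CPM. Other cell types of the heart were present as well. Endothelial markers summed to 1964 to 2059 CPM, a range of 1.05-fold over the 6 hearts. Fibroblast markers summed to 1280 CPM in WT replicate 1 and to 1719 to 1907 CPM in the others. Macrophage markers were at 128 to 195 CPM in all, against 503 to 560 CPM in the WT adult. Erythroid markers summed to 1597 to 2694 CPM and adipocyte markers to 520 to 775 CPM. Only 4 of the 10 adipocyte genes listed were tested. Most of their sum was Fabp4, with means of 556.7 CPM in WT and 681.5 CPM under the transgenic label, so it says little about adipocytes. Of tissues that could be taken along with the heart, lung epithelium summed to 3.24 to 5.46 CPM, lymphocytes and thymus to 1.53 to 2.81 CPM, thymic and skin epithelium to 4.79 to 7.499 CPM, and liver to 25.9 to 82.6 CPM. These sums cover only the genes tested, which were 1 of 9 listed for lung epithelium (Ager) and 5 of 14 for lymphocytes and thymus. They were 3 of 10 for thymic and skin epithelium and 4 of 10 for liver. Most of the liver sum was Ahsg and Trf, while Apoa2 and Ttr had means under 1 CPM in both groups. Of the skeletal muscle list, 1 of 14 genes reached 5 CPM, Ckm, which heart muscle expresses too. The defining Mylpf was at 0.847 to 1.99 CPM.

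Spread between hearts of a group was measured as the SD of log2 CPM within groups, pooled over both groups, for the 10917 genes of at least 5 CPM. The median SD was 0.11, where counting alone gives 0.06, and 90% of genes lay between 0.04 and 0.32. For 162 genes (1.48%) it exceeded 0.5, and for 19 it exceeded 1. The WT hearts differed more, with a median SD of 0.12 against 0.09. For the same genes, chosen by their level at P3, the median SD in adult hearts was 0.13. The adult libraries were shallower, at 11174515 to 13231948 counts, and the part of counting in the adult value was not measured. WT replicate 1 stood apart: it was the heart farthest from its group mean for 81 of the 162 genes, 50 of them high and 31 low. Without it 104 genes exceeded 0.5, and 20 of the 25 genes of largest SD stayed among the 25 largest.

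**Figure D4:**
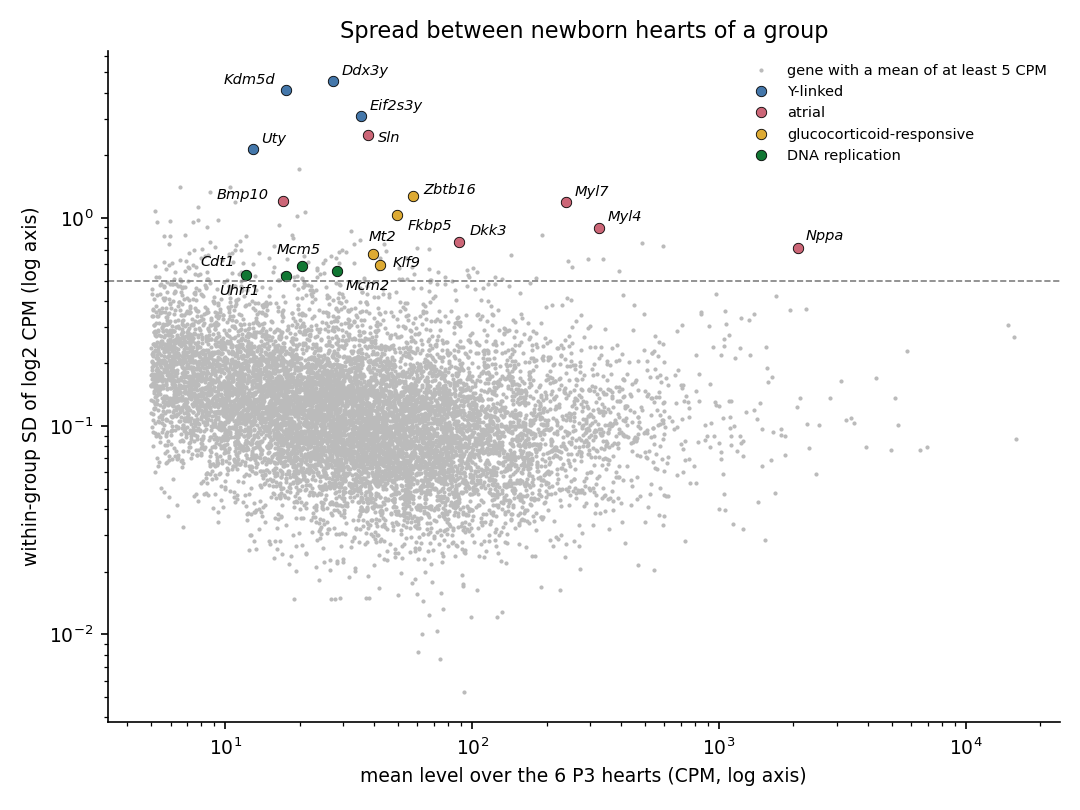
Within-group SD of log2 CPM (y axis, log scale) against the mean level over the 6 newborn hearts (x axis, CPM, log scale) for each gene of at least 5 CPM, with named genes coloured by kind and a dashed line at an SD of 0.5. Ddx3y, Kdm5d, Eif2s3y and Sln lie highest.

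The Y-linked genes topped the order. Ddx3y, Kdm5d, Eif2s3y and Uty together were at 170, 2.70 and 111.7 CPM in WT and at 148, 125 and 2.44 CPM in the libraries labelled DYRK1B-Tg. WT replicate 2 and DYRK1B-Tg replicate 3 thus stood far below the other hearts, and the 6 adult hearts were at 153 to 186 CPM. Their partners on the X chromosome, which escape X inactivation, went the other way in the same 2 hearts. Eif2s3x was at 277 and 282 CPM in these hearts and at 171 to 181 CPM in the other 4. Kdm5c was at 138 and 138 CPM in the pair, and at 90.5 to 96.1 CPM in the others. Kdm6a showed the same order, with 47.4 and 49.3 CPM against 25.4 to 32.2 CPM. With 1 such heart in each group, the groups are balanced in this respect.

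Atrial muscle genes were the next set. Sln (sarcolipin, the atrial regulator of the calcium pump) was at 46.6, 13.0 and 111 CPM in WT and at 0.470, 11.6 and 43.9 CPM in the libraries labelled DYRK1B-Tg. Myl7 (atrial myosin light chain 2) followed the same order, with 303, 136 and 606 CPM, then 39.9, 117 and 237 CPM. Bmp10, and the genes Fgf12, Mybphl, Ryr3 and Sbk3 that are on no list here, were highest in replicate 3 within each group as well. The 9 atrial markers summed to 3564, 1837 and 5482 CPM in WT and, under the transgenic label, to 1156, 1961 and 3218 CPM, a range of 4.74-fold. In every atrial marker the groups overlapped, and 0 of 9 had an unadjusted p under 0.05. With WT replicate 2 left out, 3 of 9 were lower at that p, beside 479 of 14278 genes. The count was 4 of 9 with DYRK1B-Tg replicate 3 left out, beside 315 of 14272 genes. With only the 4 hearts that had Y-linked transcripts, 7 of 9 were lower at an unadjusted p under 0.05, beside 427 of 14169 genes.

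The median log2 fold change of the atrial list was -0.64, and it moved to -0.07 without WT replicate 3. Over the same hearts the 4 ventricular markers summed to 6891, 9616 and 8919 CPM in WT and, under the transgenic label, to 10710, 9789 and 8882 CPM. The share of atrial tissue in each sample was not measured. Tbx5, a transcription factor with more transcript in atria than in ventricles, had 92.9, 50.02 and 93.5 CPM in WT and 39.3, 53.3 and 74.5 CPM in the libraries labelled DYRK1B-Tg. Nppa and Myl4 are on the atrial list, so the values of Nppa given above move with these sums.

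Nppa and Myl7 are shown with the 250 bases before their start site, because GATA factors act on atrial and other heart genes and both windows hold a GATA site. Sequences are from RefSeq (GRCm38.p6), 5′ to 3′ on the strand of the gene, and capitals mark AGATAA or TGATAA on either strand. Of 7 atrial genes matched in that table, 4 (57.1%) had such a match, beside 11.6% of 14397 promoters of the same length. A match is a description of letters and not a bound site.
Nppa (chr4:148000472-148000721, + strand): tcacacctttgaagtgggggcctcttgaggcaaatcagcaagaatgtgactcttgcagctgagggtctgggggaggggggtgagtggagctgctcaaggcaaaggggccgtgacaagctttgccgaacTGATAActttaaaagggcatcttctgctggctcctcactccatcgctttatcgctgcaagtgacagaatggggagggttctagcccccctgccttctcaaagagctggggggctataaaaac
Myl7 (chr11:5898783-5899032, - strand): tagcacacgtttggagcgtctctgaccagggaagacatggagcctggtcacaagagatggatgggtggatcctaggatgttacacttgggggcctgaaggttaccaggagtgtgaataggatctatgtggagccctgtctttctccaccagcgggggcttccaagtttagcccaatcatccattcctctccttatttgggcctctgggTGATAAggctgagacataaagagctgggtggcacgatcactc

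Genes that respond to glucocorticoids, the steroid hormones of the adrenal cortex, differed between hearts in another order. Zbtb16 (a transcriptional repressor) was at 160, 42.0 and 23.9 CPM in WT and at 13.5, 57.2 and 47.6 CPM in the libraries labelled DYRK1B-Tg. Fkbp5, a chaperone partner of the glucocorticoid receptor, gave 114, 28.5 and 29.4 CPM, then 17.9, 57.1 and 50.5 CPM. Klf9, Per1 and Mt2 were highest in WT replicate 1 as well, and so were Klf15 and Hif3a, which are not on the list. DYRK1B-Tg replicate 1 had the lowest level of the 6 hearts in Zbtb16, Fkbp5, Klf15, Per1, Mt2 and Hif3a, but not in Klf9. For the whole list of 15 genes the sum ranged from 1165 to 1916 CPM. Angptl4, also induced by fatty acids, went against the rest, with its lowest level, 41.4 CPM, in WT replicate 1.

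The median of the glucocorticoid list was -0.17 over the groups, and 0.26 without WT replicate 1, so that single heart sets its sign. Slc10a6, Fam107a, Xdh and Dusp4, which are on no list here, also had their highest level in WT replicate 1. Serpina3n, an acute-phase gene, was at 14.1, 5.24 and 3.17 CPM in WT and at 0.941, 4.16 and 3.53 CPM in the libraries labelled DYRK1B-Tg. Ahsg, a liver gene, was at 48.4, 11.96 and 23.9 CPM, then 4.76, 20.2 and 17.1 CPM. The half-site AGAACA of the glucocorticoid receptor was found in 1 of 13 matched promoters (7.69%) and in 12% of all promoters, so no sequence is shown for this list.

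**Figure D5:**
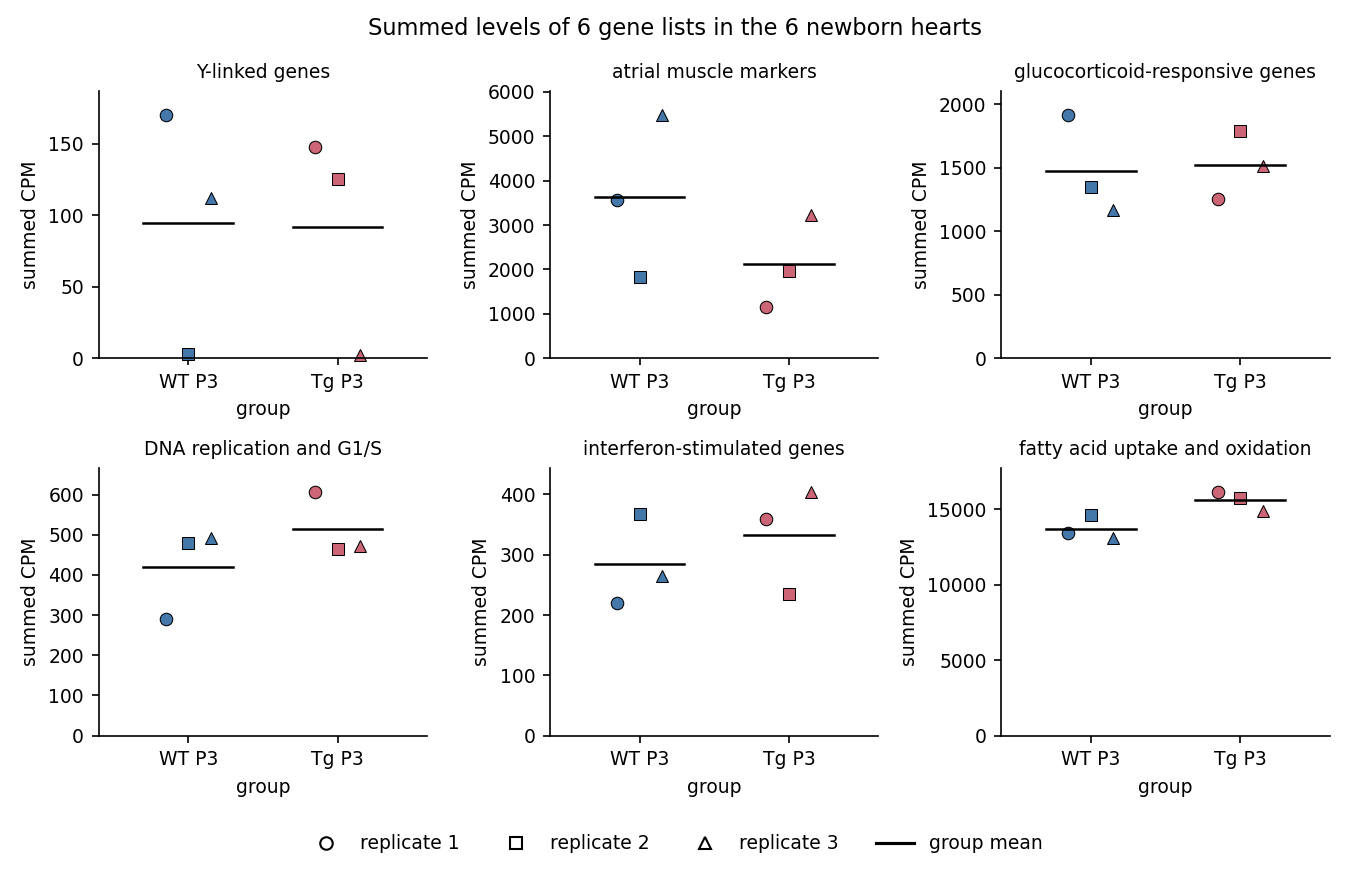
Summed CPM (y axis, from 0) of 6 gene lists in the 6 newborn hearts, by group, with markers for the replicate number and a line at the group mean. Y-linked genes are near 0 in WT replicate 2 and DYRK1B-Tg replicate 3, atrial markers peak at 5482 CPM in WT replicate 3, and DNA replication genes range from 291 CPM in WT replicate 1 to 606 CPM in DYRK1B-Tg replicate 1.

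Genes of DNA replication ran in the reverse order in the 2 replicates numbered 1. Mcm5, a subunit of the replicative helicase, was at 8.91, 22.4 and 22.0 CPM in WT and at 29.7, 18.6 and 20.9 CPM in the libraries labelled DYRK1B-Tg. Mcm2 gave 13.4, 28.8 and 33.4 CPM, then 40.9, 27.9 and 26.1 CPM. Cdt1, which loads that helicase, and Uhrf1, which copies DNA methylation, had the same lowest and highest heart. The list of 24 genes summed to 291, 479 and 492 CPM in WT and, under the transgenic label, to 606, 465 and 473 CPM, a range of 2.08-fold, whereas the mitosis list ranged by 1.30-fold. At an unadjusted p under 0.05, 0 of the 24 stood out in either direction. The list's median was 0.33, 0.10 without WT replicate 1 and 0.13 without DYRK1B-Tg replicate 1. Without WT replicate 3 it was 0.44 and 5 of 24 were higher (3.76% of all genes). Without WT replicate 2 or DYRK1B-Tg replicate 2, 2 of 24 were higher. With only the hearts that had Y-linked transcripts the median was 0.52, and 1 of 24 was higher (4.16%).

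Promoters of Mcm5 and Mcm6 are shown because replication genes are known targets of E2F factors. Both are on the list of replication genes. Capitals mark TTTCCCGC, TTTCGCGC or TTTGGCGC on either strand, with overlapping matches joined into 1 run. Such a match was found in 6 of 19 matched promoters of the list (31.6%) and in 2.46% of 14397 promoters. The table, build and direction are as above.
Mcm5 (chr8:75109259-75109508, + strand): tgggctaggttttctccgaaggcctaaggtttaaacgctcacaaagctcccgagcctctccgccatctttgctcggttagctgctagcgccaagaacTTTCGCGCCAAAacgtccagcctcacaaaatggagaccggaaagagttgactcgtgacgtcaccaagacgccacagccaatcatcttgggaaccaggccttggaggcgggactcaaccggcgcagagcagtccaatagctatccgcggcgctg
Mcm6 (chr1:128359706-128359955, - strand): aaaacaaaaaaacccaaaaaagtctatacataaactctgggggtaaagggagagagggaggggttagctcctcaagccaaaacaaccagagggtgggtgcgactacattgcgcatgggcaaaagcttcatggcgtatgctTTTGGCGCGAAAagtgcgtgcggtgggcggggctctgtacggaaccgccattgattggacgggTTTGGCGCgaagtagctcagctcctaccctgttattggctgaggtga

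Interferon-stimulated genes, the antiviral set, had a median SD of 0.54 over the 28 genes tested. This was the highest among the lists with 10 or more genes tested. Of the 28, 18 had a mean of at least 5 CPM, and counting adds more to the SD of the others. An SD over 0.5 was found for 16 of the 28, but for 7 at that level, as for 7 in the glucocorticoid list. The place of this list thus rests in part on genes under the floor used for the spread above. Oasl2 was at 15.4, 30.1 and 20.2 CPM in WT and at 22.4, 15.6 and 37.3 CPM in the libraries labelled DYRK1B-Tg. Irf7, a transcription factor of the response, gave 5.96, 14.0 and 8.34 CPM, then 12.1, 7.16 and 16.96 CPM. Isg15, a ubiquitin-like modifier, gave 2.78, 6.41 and 3.22 CPM, then 5.59, 2.58 and 7.26 CPM. WT replicate 2 and DYRK1B-Tg replicate 3 were the 2 highest hearts in these 3 genes, and they are also the hearts low in Y-linked transcripts. DYRK1B-Tg replicate 1, with Y-linked transcripts, came next. The list summed to 220 to 404 CPM in newborn hearts and to 623 to 1287 CPM in the WT adult. Of 28 genes 1 was higher (Usp18) and 0 lower at an unadjusted p under 0.05, beside 2.77% and 2.03% of all genes. The list's median of 0.25 went to 0.08 without WT replicate 1 and to 0.04 without DYRK1B-Tg replicate 3, each with 0 of 28 higher. Without WT replicate 2 it went to 0.57 with 8 of 28 higher (4.1% of all genes), and without DYRK1B-Tg replicate 2 to 0.45 with 8 of 28 higher (1.77%). With only the hearts that had Y-linked transcripts it was 0.40, and 2 of 28 were higher (4.16%).

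Promoters of Isg15 and Ifit1 are shown because they hold the core of the interferon-stimulated response element, the site through which interferon signalling turns such genes on. Capitals mark GAAA, any 2 bases and GAAA again, on either strand, with overlapping matches joined. The core was found in 13 of 22 matched promoters of the list (59.1%) and in 2.8% of 14397 promoters.
Isg15 (chr4:156200819-156201068, - strand): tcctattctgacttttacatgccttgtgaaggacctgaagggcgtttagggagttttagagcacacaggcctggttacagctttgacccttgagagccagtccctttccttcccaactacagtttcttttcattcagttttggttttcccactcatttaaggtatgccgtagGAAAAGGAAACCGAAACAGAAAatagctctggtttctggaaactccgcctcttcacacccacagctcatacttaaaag
Ifit1 (chr19:34640639-34640888, + strand): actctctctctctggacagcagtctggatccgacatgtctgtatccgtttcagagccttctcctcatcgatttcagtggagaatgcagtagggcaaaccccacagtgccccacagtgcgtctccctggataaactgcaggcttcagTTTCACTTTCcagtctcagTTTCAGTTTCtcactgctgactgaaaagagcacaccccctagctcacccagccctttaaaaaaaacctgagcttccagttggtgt

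Further genes of large spread did not follow these orders. Eln (elastin, of elastic vessels) was at 365, 574 and 662 CPM in WT and at 302, 1099 and 548 CPM in the libraries labelled DYRK1B-Tg. Acan (a cartilage-type proteoglycan that great vessels and valves also make), Ltbp2 and Fbln5 likewise had their highest level in DYRK1B-Tg replicate 2. Rps27, a ribosomal protein gene, was at 166, 180 and 224 CPM in WT and at 128, 121 and 41.7 CPM in the libraries labelled DYRK1B-Tg. Ribosomal protein genes have many processed copies among which reads can be divided, so the values of Rps27 are uncertain, although its groups did not overlap. Its list of 24 ribosomal protein genes had a median of 0.03. Plac9b, Tmem163 and Adcy1 were also among the 25 genes of largest SD.

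The heart with most effect on a list's median differed from list to list. Of the 54 lists, those with at least 3 genes tested and a median beyond 0.2 in size numbered 10. They numbered 4 without DYRK1B-Tg replicate 1, whereas 16 were beyond it without WT replicate 2.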

How the data were processed

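RNA of whole hearts frozen in liquid nitrogen and extracted with TRIzol was sequenced, per the labels' protocols. The authors deposited 1 table of estimated counts per gene and library, and the values are not all whole (29.3% to 32.8% of genes hold decimals). The submitters' processing notes list HISAT2 2.0.4, STAR 2.3.0, DESeq2 and the builds mm8 and mm9 without roles. The build and the counting program used for these counts, and whether strand was used, are not given in the sources used here, and no coordinates come from these files.

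Counts of 18444 genes were rounded to whole numbers. Genes were filtered and tested in edgeR 4.0.16 (R 4.3.3, limma 3.58.1) with TMM scaling, a quasi-likelihood fit of 4 group means over 12 libraries and Benjamini-Hochberg adjustment. The 95% intervals are the log2 fold change ± the t quantile times the SE. The spread used log2 CPM with a prior count of 2. Coding lengths were available for 96% of genes, and 99.3% of gene IDs matched the RefSeq table. Promoters are the 250 bases before the start in RefSeq GRCm38.p6.

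The members and the 54 gene lists were chosen with earlier results of these data known. Genes were named by rule: the 8 lowest p in each direction at 1 CPM or more, the 15 most abundant, the 25 of largest spread at 5 CPM or more, list members of highest level or spread, and 15 genes taken for the adult change. Not every gene under the rule is reported here. Genes named beyond these were chosen after their values were seen. Alternatives were RLE scaling, no filter, leaving out the 10 most abundant genes, the 6 newborn libraries alone, a replicate block, a term for Y-linked counts or only hearts with them, each library left out, DESeq2 1.42.0 and a minimum fold of 1.2. Counts of list members and the share of adult changes left out were repeated without single libraries after the data had been seen. Each group had 3 libraries, so their number as well as depth limits the precision. The statistics were tested on simulated data.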

Additional observations from a re-analysis of the deposited data

Results flagged for a closer look

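The genotype difference at P56 minus that at P3 was tested as an interaction in edgeR with adjustment over all genes. It passed the threshold for 13 of the 16 genes read against the adult, Dyrk1b included, beside 2109 of all genes (14.8%). Apart from Dyrk1b, these genes were taken for the adult change, which enters the interaction, so the count follows in part from their choice. The interaction was 2.87 on the log2 scale for Dyrk1b (adjusted p = 1.08e-05). For genes of cardiac stress it was 2.92 for Nppa (adjusted p = 0.0042), 3.48 for Nppb (0.000707), 3.97 for Acta1 (0.000351) and 4.14 for Myh7 (0.00264). Among matrix genes it was 5.28 for Thbs4, 2.99 for Postn and 1.48 for Col1a1, with adjusted p of 6.4e-06, 1.87e-05 and 0.00253. It was below 0 for Atp2a2 (-0.48, adjusted p = 0.0209), Hadhb (-0.9, 0.000479), Suclg2 (-0.74, 0.000219) and Sdha (-0.73, 0.000484). Stat3 gave 0.73 (adjusted p = 0.00814).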

How the results depend on the processing

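DESeq2 called 1 gene at P3 where edgeR called 0. Every other setting run, each library left out included, called 0 as well, and so did a minimum fold of 1.2. The number of genes held within 2-fold was 12570, and 11989 to 12422 when 1 newborn library was left out, 11461 with only the newborn hearts that had Y-linked counts and 12465 with the replicate block. Of the gene lists, 10 had a median beyond 0.2 in size, 22 with only the hearts that had Y-linked counts, and 4 to 16 when 1 library was left out. The interaction of genotype and age was called for 2109 genes, 1394 with only those hearts, 1538 to 2102 when 1 library was left out and 1747 with the replicate block. Col3a1 and Ppargc1a passed the interaction test without WT replicate 1 at P3. Atp2a2 lost it without WT replicate 3 or DYRK1B-Tg replicate 1 at P3, or without WT replicate 2 at P56. A spread over 0.5 was found for 162 genes, 73 among those of at least 20 CPM, 52 by the biological coefficient of variation of edgeR (another measure), and 104 to 214 when 1 library was left out. The causes were not tested, apart from fewer genes or samples where the setting itself leaves them out. Deviations from the group means of newborn hearts with the same replicate number correlated at -0.229, -0.174 and -0.013. Hearts of the same number thus did not deviate alike over all genes. With 3 hearts a group such deviations depend on each other, so these values cannot show whether the numbers pair the hearts. The block called 0 genes at P3. No difference that passed a test reversed. Medians of lists, which carry no test, did change sign, among them the glucocorticoid list (-0.17, and 0.26 without WT replicate 1), the extracellular matrix (0.02, and -0.09 without WT replicate 1) and the replication-dependent histones (-0.19, and 0.10 without a filter on low counts). With 3 hearts a group and 15742463 to 17095338 counts per library, genes under 1 CPM carry little information at P3.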

Other observations

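The zinc finger genes Gm14296 and 2210418O10Rik, both among the genes of lowest p at P3 and set side by side after their values were seen, held 146 to 191 counts together in each newborn heart. 2210418O10Rik had 0, 0 and 16.5% of these counts in the newborn WT hearts and 66.4%, 64.6% and 67.0% in the libraries labelled DYRK1B-Tg. In the adult it had 0% in each WT heart and 75.0%, 39.6% and 38.5% in DYRK1B-Tg. The groups did not overlap at either age, whereas the sums of both genes did.

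Thyroglobulin (Tg), the only gene tested of the parathyroid and thyroid list, was at 14.98, 10.3 and 16.9 CPM in the newborn WT hearts and at 8.89, 9.48 and 9.70 CPM in the libraries labelled DYRK1B-Tg. Macrophage markers had a median log2 fold change of -0.24 at P3, with 0 of 11 at an unadjusted p under 0.05. Of the 226 genes called in the adult that also had an unadjusted p under 0.05 at P3, 41 were higher at both ages and 48 lower at both. A further 93 were higher at P3 and lower in the adult, and 44 the reverse.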
